A study of Mus musculus with 25 samples.

Results

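The genes of 8 SR and SR-like splicing factors other than SRSF7 were examined as RNA targets of SRSF7: Srsf1, Srsf2, Srsf3, Srsf4, Srsf5, Srsf6, Tra2a and Tra2b. Each gene was represented by 1 fixed interval of mouse genome build mm9, and a crosslink event was assigned to it only when it lay on the gene's own strand. The intervals are chr11:87858001-87870000 (+) for Srsf1, chr11:116708001-116716000 (-) for Srsf2, chr17:29167001-29183000 (+) for Srsf3 and chr4:131425001-131460000 (+) for Srsf4. Those of the other members are chr12:82042001-82055000 (+) for Srsf5, chr2:162754001-162766000 (+) for Srsf6, chr6:49192001-49218000 (-) for Tra2a and chr16:22242001-22270000 (-) for Tra2b. They are 8 of the 505007 regions into which the events of the whole series were sorted, the rest being windows of 5000 nt on either strand. No exon, intron or UTR was assigned to a position, because an mm9 annotation was not used here, and positions are given by coordinate and by distance from the 5′ end of the interval.

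SR proteins bind pre-mRNA through RNA recognition motifs and use a domain rich in arginine-serine dipeptides to recruit other splicing factors. SRSF7 carries, besides its RNA recognition motif, a zinc knuckle that takes part in RNA contact. Genes of SR proteins are themselves known for poison exons, alternatively spliced segments whose inclusion introduces an early stop codon and sends the mRNA to nonsense-mediated decay, and SR proteins act on their own transcripts and on each other's through them.

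The libraries came from P19 cells, a mouse embryonal carcinoma line, and were made by iCLIP, in which UV-crosslinked RNA is immunoprecipitated and the reverse transcription stop marks the crosslinked nucleotide. With the anti-EGFP antibody, the UV-irradiated groups were mutZn (cells labelled SRSF7mutZn-GFP, 2 libraries), D27aa (SRSF7D27aa-GFP, 2 libraries) and WT (SRSF7-GFP OE, 3 libraries), each with 1 library without UV. The labels do not describe the mutZn and D27aa changes further, and all 3 proteins carry a GFP tag. With the anti-SRSF7 antibody, the UV-irradiated groups were RRM_OE, endo_OE and GFP_OE (2 libraries each, all labelled SRSF7-GFP OE and told apart only by their titles) and endo_WT (1 library of WT cells), beside 1 GFP_OE library without UV and 1 without antibody. In piCLIP, RNA was recovered from ribosomal fractions of SRSF7-GFP OE cells: poly_IP and mono_IP had 2 libraries each, and the libraries titled poly_IgG and mono_IgG 1 each, though their labels also list anti-EGFP. Replicate libraries are described as biological in the design text. WT 3 and WT 4 carry the same replicate number and sequencing run in their file headers, so p-values may measure technical spread only.

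Depth differed widely. The mutZn libraries held 11774078 and 6431982 events, the D27aa libraries 376536 and 388411, and the WT libraries 221521, 1098442 and 3949479. The 7 anti-SRSF7 UV libraries held 17745 to 471340 events and the 4 piCLIP immunoprecipitates 18319 to 52393. Levels are given as CPM, the events of an interval per 1e+06 events of its library, and as CPM per kb where genes are compared. No-UV libraries held 0.732% (mutZn), 9.13% (D27aa) and 5.07% (WT) of the mean event total of their UV groups. The D27aa no-UV library stood apart: 31.3% of its positions were also crosslink positions of WT 4, a library of the same sequencing run, against 9.52% for positions shifted by 1 or 2 nt, so its values are counted below as those of a library that shares positions with WT 4. In the other anti-GFP no-UV libraries the 2 shares were 9.69% and 9.16% (mutZn) and 11.9% and 10.6% (WT).

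All 8 genes were crosslinked in every UV anti-GFP library. Together they took 0.205% and 0.203% of the events in mutZn, 0.178% and 0.166% in D27aa, and 0.186%, 0.184% and 0.187% in WT. The order of the levels per kb in WT was Srsf2 at 41.8 CPM per kb, Srsf1 at 35.3, Srsf6 at 16.7, Srsf3 at 12.6, Srsf5 at 10.7, Tra2a at 8.20, Tra2b at 8.18 and Srsf4 at 3.34 CPM per kb. Srsf2 and Srsf1 overlapped in their library ranges, and so did each neighbouring pair among Srsf3, Srsf5, Tra2a and Tra2b, whereas Srsf6 stood clear of both its neighbours and Srsf4 of Tra2b. Among 283294 windows with at least 1 WT event, the WT levels per kb lay between the 96.1th percentile (Srsf4) and the 99.97th percentile (Srsf2). In mutZn the order ran Srsf2, Srsf1 and then Srsf3 at 26.2 CPM per kb, above Srsf6 at 16.9 CPM per kb, and no neighbouring pair overlapped. In D27aa the order was led by Srsf2 at 43.5 and Srsf1 at 30.5 CPM per kb, with Srsf3 at 9.97 CPM per kb and overlapping Srsf5 at 10.5. Events on the opposite strand made up 0.93% to 2.05% of both strands in the UV anti-GFP libraries, and for Srsf4 in mutZn they made up 4.78%.

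**Figure D1:**
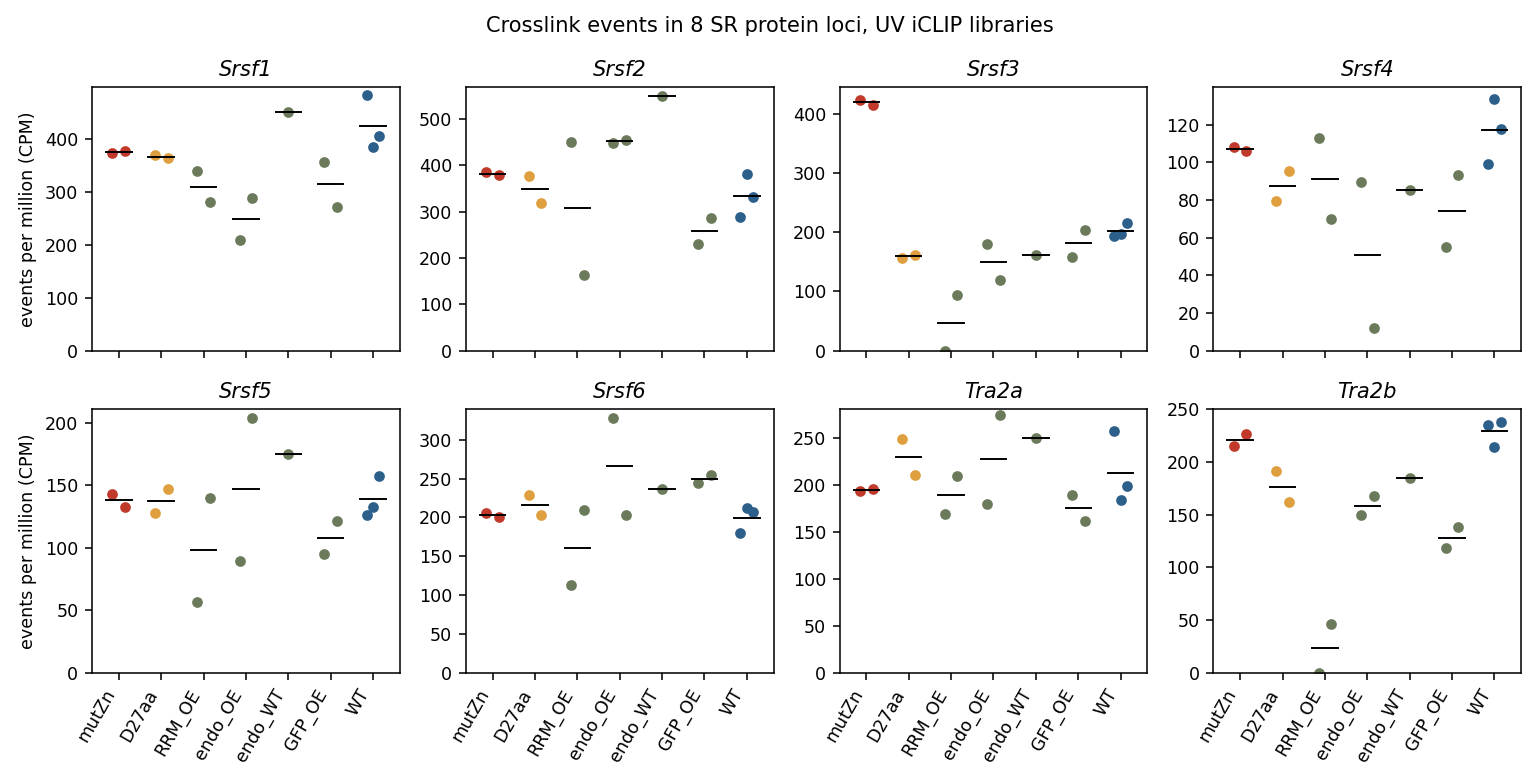
Crosslink events in CPM (y axis from 0) in each of the 8 intervals, 1 point per UV iCLIP library, with groups from left to right mutZn, D27aa, RRM_OE, endo_OE, endo_WT, GFP_OE and WT, and black lines at the group mean. In Srsf3 both mutZn libraries, at 423 and 414 CPM, sit above every other library, the highest of which is WT 4 at 215 CPM.

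Comparing mutZn with WT asks whether the altered SRSF7 protein crosslinked differently to these transcripts. Srsf3, which encodes the short SR protein most closely related to SRSF7, had 423 and 414 CPM in mutZn, against 194, 197 and 215 CPM in WT. The groups did not overlap, and each mutZn library lay above every WT library. Srsf3 was higher in mutZn by 0.99 ± 0.06 on the log2 scale (SE, adjusted p = 1.76e-11, limma-voom with Benjamini-Hochberg adjustment over 36154 regions). It was the 1 member of 8 past the threshold of 0.05, where 29.0% of all regions tested passed it (13.7% higher in mutZn), and 63.7% of the 281 regions with at least as many events as the least covered member. When each crosslinked position was counted once in place of its events, the Srsf3 difference was 0.25 (adjusted p = 0.023). Within the 1 sequencing run that held both groups, Srsf3 had 414 CPM in mutZn 4, against 197 and 215 CPM in WT 3 and WT 4, a ratio of 2.01. CPM values depend both on the amount of a transcript and on crosslinking per transcript, and these cannot be told apart here.

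The other 7 members did not pass the test on events. Srsf1, the founding SR splicing factor and an oncoprotein, had 373 and 376 CPM in mutZn, against 483, 384 and 405 CPM in WT; both mutZn libraries lay below all WT libraries, by 0.14 ± 0.06 on the log2 scale (SE, adjusted p = 0.066). Srsf2, which encodes a nuclear speckle protein widely known as SC35, had 384 and 378 CPM in mutZn, against 289, 381 and 332 CPM in WT, and the groups overlapped (log2 difference 0.14, adjusted p = 0.10). Srsf4, Srsf5 and Srsf6 encode SR proteins with a second, degenerate RNA recognition motif. For Srsf4 the levels were 108 and 106 CPM in mutZn, against 99.3, 134 and 118 CPM in WT. For Srsf5 they were 143 and 132 CPM in mutZn, against 126, 133 and 158 CPM in WT. For Srsf6 they were 206 and 201 CPM in mutZn, against 181, 212 and 207 CPM in WT. All 3 overlapped between the groups, with log2 differences of -0.19, -0.12 and -0.04 (adjusted p = 0.087, 0.30 and 0.71). Tra2a and Tra2b encode SR-like activators that recognise purine-rich exonic enhancers. Tra2a had 194 and 195 CPM in mutZn, against 257, 184 and 199 CPM in WT, and Tra2b had 216 and 227 CPM in mutZn, against 235, 214 and 238 CPM in WT. Both lay inside the WT range, with log2 differences of -0.06 and -0.09 (adjusted p = 0.57 and 0.31). Within the shared run the 7 ratios of mutZn to WT lay between 0.842 (Srsf4) and 1.06 (Srsf2). When each position was counted once, 4 of these 7 passed, all lower in mutZn, with log2 differences of -0.63 for Srsf1, -0.56 for Srsf2, -0.37 for Srsf5 and -0.27 for Srsf6 (adjusted p = 2.48e-05, 3.06e-04, 0.0010 and 0.021). The direction of Srsf2 therefore rests on how events are counted. Srsf4, Tra2a and Tra2b had differences of -0.17, -0.15 and -0.17 under that counting (adjusted p = 0.14, 0.16 and 0.082). Libraries of unequal depth differ in how many events share a position. Srsf1 held 4394 events on 1942 positions in mutZn 3, against 107 on 96 in WT 2. Whether depth sets the lower position counts in mutZn was not tested. WT 2, the least covered WT library, decided several of these calls. Without it 5 members passed, which were Srsf3 and Srsf2 higher, and Srsf1, Srsf4 and Tra2b lower in mutZn. The 4 besides Srsf3 differed by at most 0.21 on the log2 scale. In the main fit 29.0% of all regions passed, and 63.7% of those with at least the events of the least covered member. Those shares are not given here for the fit without WT 2 or for positions counted once.

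**Figure D2:**
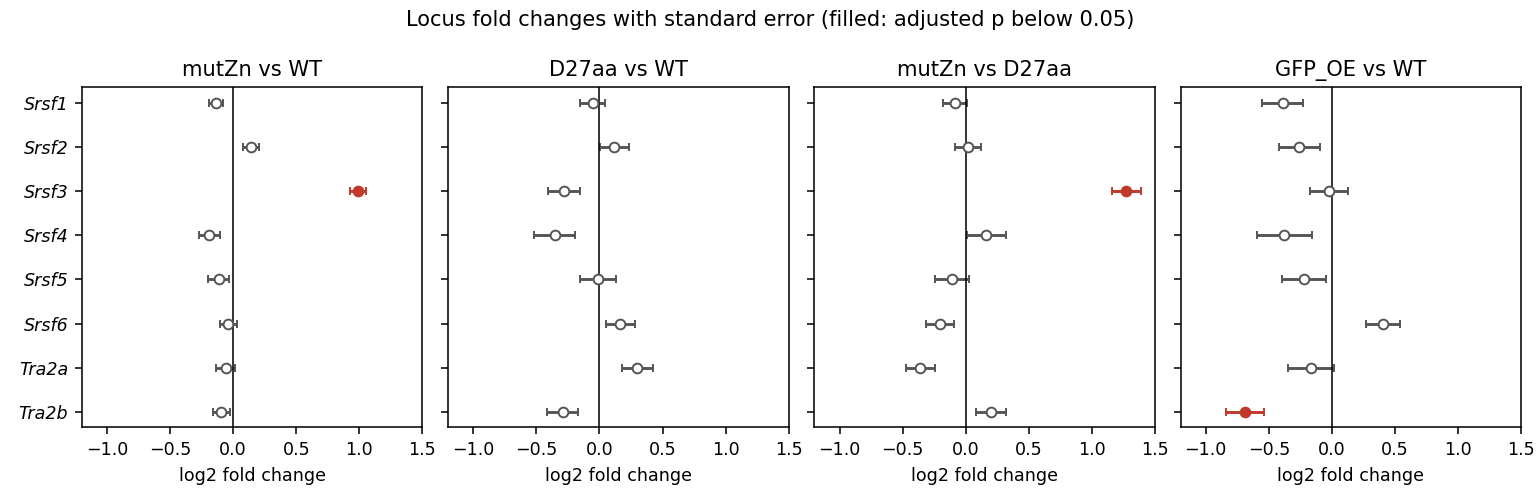
Log2 fold changes of the 8 genes (x axis) in 4 comparisons, the group named first over the group named second, with bars of 1 standard error from limma-voom; filled points passed an adjusted p of 0.05. Srsf3 stands at 0.99 for mutZn over WT and at 1.27 for mutZn over D27aa, while the other filled point is Tra2b for GFP_OE over WT at -0.69.

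The distribution of events along each interval was compared next, in bins of 100 nt. Of the 1500 bins of the 8 intervals, 146 reached the minimum, the level of 5 events at the median library total, in at least 2 of the 7 UV anti-GFP libraries. Between mutZn and WT, 18 of these 146 differed, 17 higher and 1 lower in mutZn, against 7.11% of all 21684 bins tested (4.67% higher and 2.44% lower in mutZn). Srsf3 held 16 of the 18, all higher in mutZn, from 24 tested bins of its 160. A bin could pass the minimum through the 2 mutZn libraries alone: 18 of the 24 tested Srsf3 bins, and 11 of the 16 that differed, also reached it without them. Srsf2 and Tra2a held 1 each of the other differing bins, of 26 and 14 tested. None of the 31 tested bins of Srsf1, 2 of Srsf4, 16 of Srsf5, 23 of Srsf6 and 10 of Tra2b passed.

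The 16 Srsf3 bins lay in 1 run of 18 bins, chr17:29175701-29177500 on the plus strand, 8700 to 10500 nt from the 5′ end of the interval; the other 2 bins of the run were 1 that was tested without passing and 1 that was not tested. These bounds were set after the bin values were seen, so the run's totals are given as a description without a test. The run held 287 and 278 CPM in mutZn, 85.0 and 90.1 CPM in D27aa, and 81.3, 93.8 and 85.1 CPM in WT. The mutZn mean was 3.26 times that of WT, and the D27aa mean was 1.01 times that of WT. The 8700 nt before the run held 72.4 and 77.4 CPM in mutZn, against 67.7, 56.4 and 70.9 CPM in WT, a ratio of means of 1.15. The 5500 nt after it held 63.9 and 58.8 CPM in mutZn, against 45.1, 46.4 and 58.7 CPM in WT, a ratio of 1.22. The run took 67.5% of the interval's events in mutZn, 54.9% in D27aa and 43.1% in WT. A higher share in mutZn than in WT follows from how the bounds were set.

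**Figure D3:**
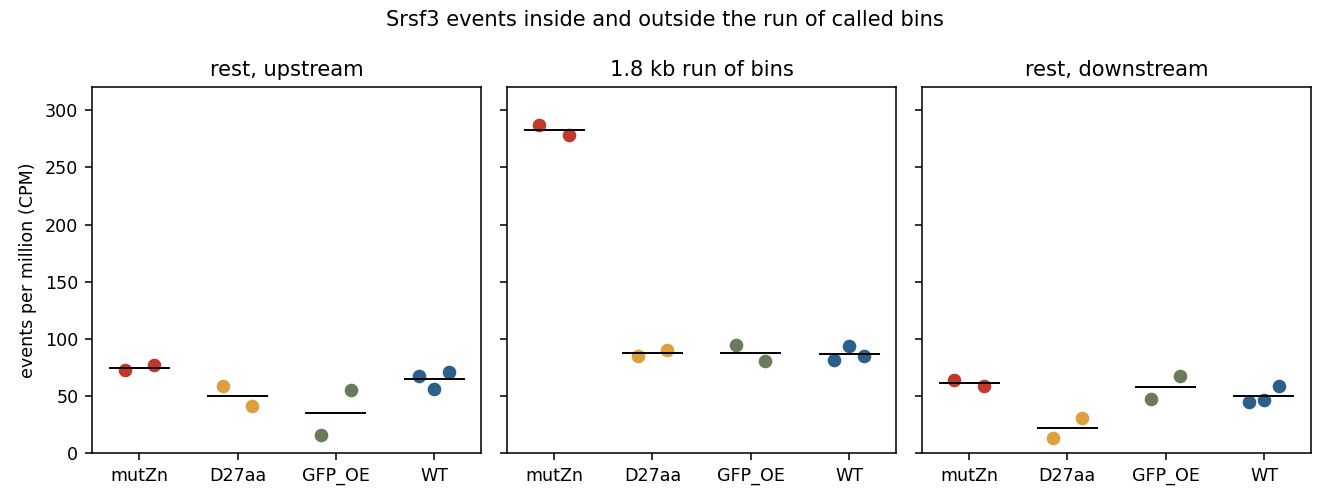
CPM (y axis from 0) of Srsf3 before, inside and after the run of 18 bins, 1 point per library in mutZn, D27aa, GFP_OE and WT, with black lines at the group mean. Inside the run the mutZn libraries are at 287 and 278 CPM and all other libraries shown are below 100 CPM, while outside it no library exceeds 77.4 CPM.

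The highest mutZn bin of Srsf3 was chr17:29176701-29176800, where 452 and 241 events were counted in mutZn (38.4 and 37.5 CPM), 7 and 6 in D27aa (18.6 and 15.4 CPM), and 2, 5 and 22 in WT (9.03, 4.55 and 5.57 CPM). D27aa lay between the other groups without overlapping either. The bin was higher in mutZn than in WT by 3.09 ± 0.35 on the log2 scale (SE, adjusted p = 3.83e-04), and by 1.60 relative to the other Srsf3 bins (bin usage by limma's diffSplice, adjusted p = 0.042). Usage of a bin passed in 0.163% of the 15908 bins with that test. This usage call was lost with the sequencing run as a block (adjusted p = 0.47), with positions counted once (adjusted p = 0.86) and without WT 3, WT 4, mutZn 3 or mutZn 4. The bin just upstream, chr17:29176601-29176700, had 23.5 and 21.6 CPM in mutZn, 13.3 and 5.15 CPM in D27aa, and 0, 3.64 and 3.80 CPM in WT, higher in mutZn than in WT by 3.00 ± 0.45 (adjusted p = 0.0025). WT 2 held no event there, which allows up to 13.5 CPM. The bin chr17:29177201-29177300 had 15.9 and 14.1 CPM in mutZn, 5.31 and 5.15 CPM in D27aa, and 4.51, 1.82 and 3.54 CPM in WT, a difference of 2.53 ± 0.42 between mutZn and WT (adjusted p = 0.0028). All 3 missed the threshold when each position was counted once (adjusted p = 0.057 to 0.058), and under that counting none of the 8 genes' bins passed. Over all 16 bins the log2 differences between mutZn and WT ran between 1.45 and 3.09, and mutZn lay above every WT library in 15 of them. Leaving out mutZn 3 left 3 Srsf3 bins past the threshold and leaving out mutZn 4 left 4, while without WT 3 there were 9 and without WT 4 there were 6.

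**Figure D4:**
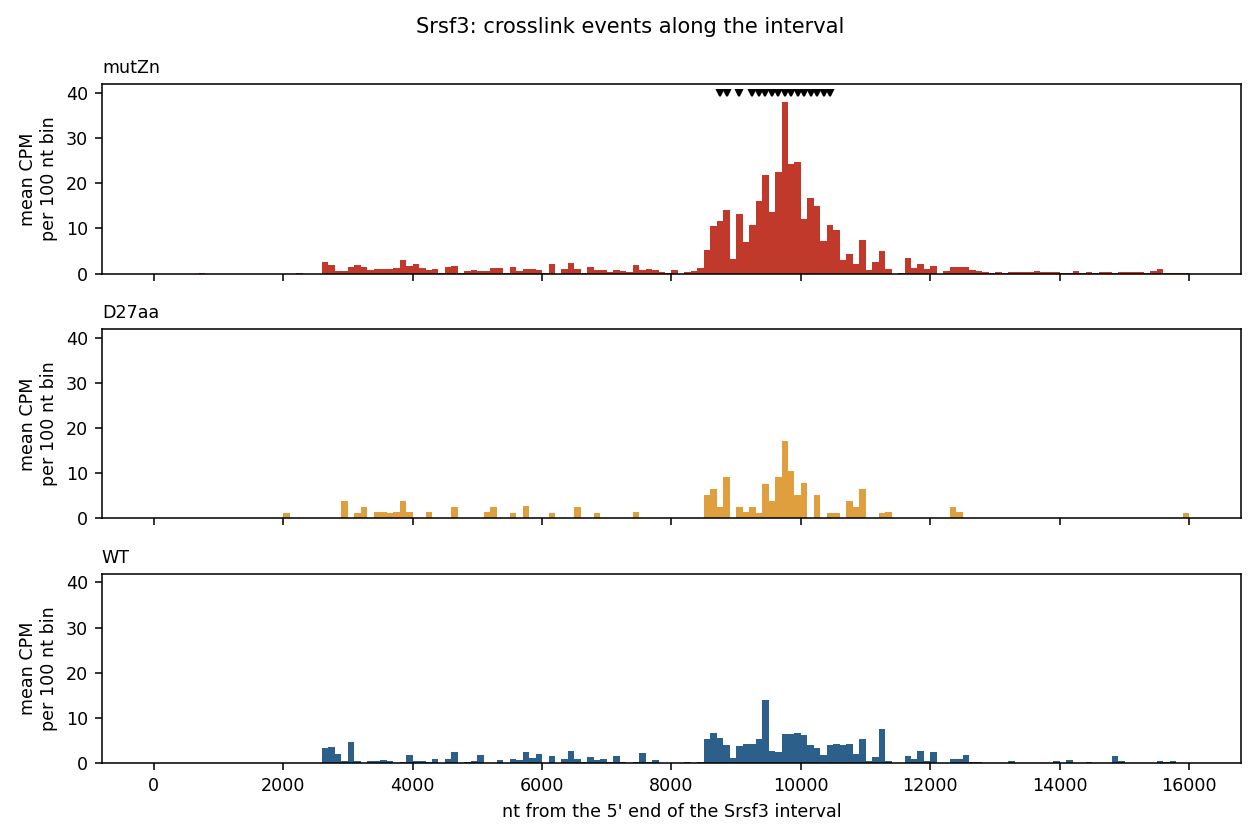
Mean CPM per 100 nt bin (y axis from 0) along Srsf3 in mutZn, D27aa and WT from top to bottom, by distance from the 5′ end of the interval (x axis, nt); triangles mark the 16 bins that differed between mutZn and WT. The triangles lie between 8700 and 10500 nt, where the highest mutZn bin is at 37.9 CPM, against 17.0 CPM in D27aa and 6.38 CPM in WT.

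Tra2a showed the opposite change in 1 bin. At chr6:49195501-49195600, 22450 nt from the 5′ end of the interval, 48 and 21 events were counted in mutZn (4.08 and 3.26 CPM), 5 and 5 in D27aa (13.3 and 12.9 CPM), and 3, 14 and 50 in WT (13.5, 12.7 and 12.7 CPM). The mutZn libraries lay below all others, and D27aa and WT overlapped. The bin was lower in mutZn than in WT by 1.38 ± 0.37 on the log2 scale (SE, adjusted p = 0.033), and its usage within Tra2a fell by 1.60 (adjusted p = 0.026). The level call held in 5 of 10 alternative settings and was lost without WT 3, mutZn 3 or mutZn 4, with positions counted once (adjusted p = 0.17) and with the sequencing run as a block (adjusted p = 0.078). The same bin was the highest of Tra2a in WT, at 6.19% of the gene's events.

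Single bins outside the naming rule complete these counts and were chosen after their values were seen. In Srsf2, chr11:116711501-116711600 averaged 11.3 CPM in mutZn and 3.72 CPM in WT (log2 difference 1.86, adjusted p = 0.017). In Srsf3, chr17:29169601-29169700 passed by usage alone, lower in mutZn (-2.20, diffSplice, adjusted p = 0.014). It had 2.38 and 2.80 CPM in mutZn and 0, 4.55 and 5.82 CPM in WT. Its level overlapped between the groups and did not pass (log2 difference -0.55, limma-voom, adjusted p = 0.52). Usage is relative to the other tested bins of the gene, and 16 of the 24 tested Srsf3 bins were higher in mutZn. This usage call was lost with positions counted once and with the sequencing run as a block.

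**Figure D5:**
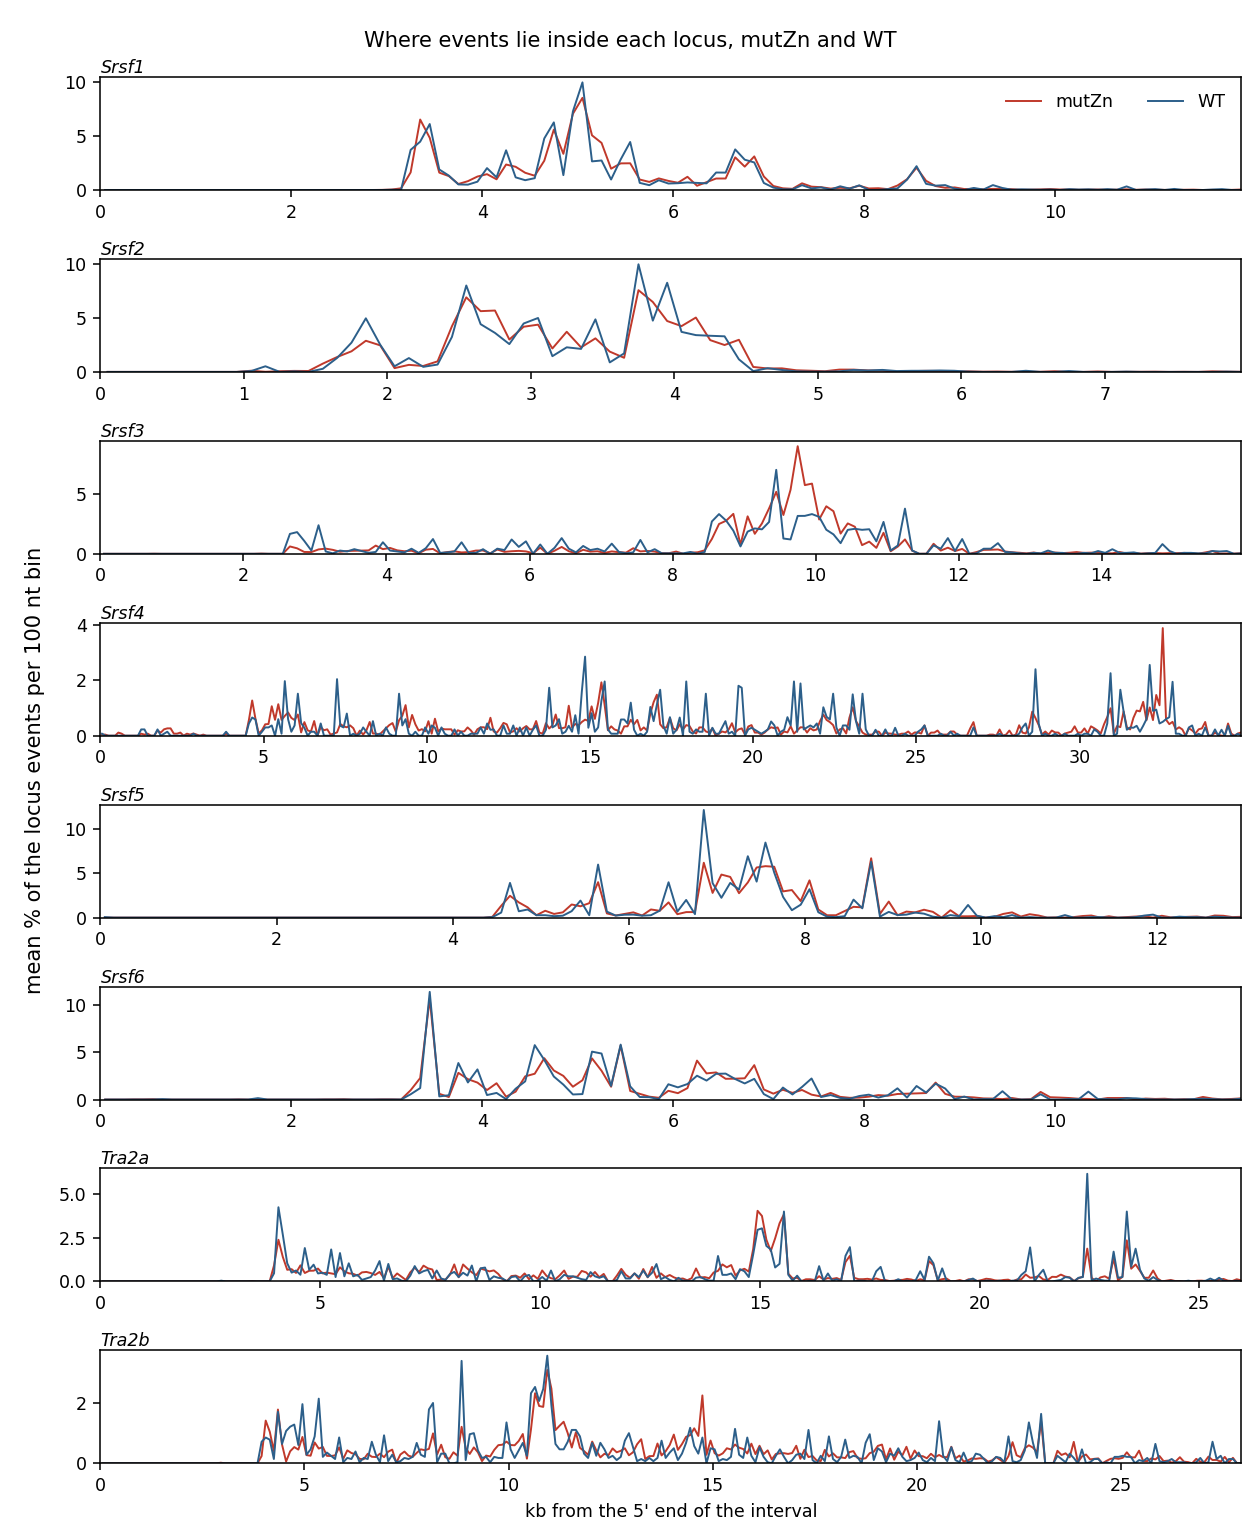
Share of each gene's events in 100 nt bins (y axis, percent, from 0) along the 8 intervals for mutZn and WT (lines are group means), by distance from the 5′ end (x axis, kb). Srsf1, Srsf2, Srsf5 and Srsf6 have a few high bins in the same places in both groups, while Srsf4, Tra2a and Tra2b spread over many low bins.

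The profiles were also compared as a whole. Pearson's r between the mutZn and WT profiles across bins, given as a description, was 0.93 for Srsf1, Srsf2 and Srsf6, 0.89 for Srsf5, 0.77 for Tra2a, 0.76 for Srsf3, 0.72 for Tra2b and 0.41 for Srsf4. Between WT 3 and WT 4 it was 0.94, 0.96 and 0.90 for Srsf1, Srsf2 and Srsf6, 0.86 for Srsf5, 0.82 for Tra2a, 0.81 for Srsf3, 0.68 for Tra2b and 0.41 for Srsf4. Between mutZn 3 and mutZn 4, the deepest libraries, it was 0.99 for Srsf1, Srsf2 and Srsf3, 0.97 for Srsf6, 0.95 for Srsf5 and Tra2a, 0.90 for Tra2b and 0.80 for Srsf4. For each gene the value between the groups lay below that between the mutZn libraries, whereas it lay above that between WT 3 and WT 4 for Srsf5, Srsf6 and Tra2b. The genes differed in how concentrated their events were. In WT, the smallest number of bins that together held at least as many events as all other bins of the gene was 9 in Srsf2 and Srsf5, 10 in Srsf1 and Srsf6, 19 in Srsf3, 24 in Tra2a, 39 in Tra2b and 52 in Srsf4. In mutZn the number for Srsf3 was 11, and its 5 highest bins took 31.4% of the events, against 17.0% in WT. For Srsf1 those shares were 32.3% in mutZn and 33.9% in WT.

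The leading bins of 3 genes were shared by mutZn, D27aa and WT. In Srsf1 it was chr11:87863001-87863100, with 8.54% of the gene's events in mutZn, 13.6% in D27aa and 9.97% in WT, and it also led in GFP_OE at 12.1%. In Srsf6 it was chr2:162757401-162757500, with 10.6% in mutZn, 10.2% in D27aa and 11.4% in WT, and it led in endo_OE and GFP_OE as well. In Tra2b it was chr16:22259001-22259100, with 3.08% in mutZn, 6.05% in D27aa and 3.55% in WT. The Srsf2 bin chr11:116712201-116712300 led in mutZn (7.57%) and WT (9.98%), whereas chr11:116711801-116711900 led in D27aa at 11.5%. In Srsf3, chr17:29176701-29176800 led in mutZn (9.06%) and D27aa (10.7%) and held 3.19% in WT, where chr17:29176401-29176500 led at 7.06%. That WT lead rests on WT 2, whose 6 events there made 27.1 CPM, against 7.28 CPM in WT 3 and 7.60 CPM in WT 4. Other Srsf3 bins were higher in WT 3 (9.10 CPM at chr17:29176901-29177000) and in WT 4 (8.61 CPM at chr17:29176801-29176900). The leading bins of the rest differed between groups. For Srsf5 they were chr12:82050701-82050800 in mutZn (6.67%), chr12:82049301-82049400 in D27aa (12.2%) and chr12:82048801-82048900 in WT (12.1%). For Srsf4 they were chr4:131457501-131457600 in mutZn (3.88%), chr4:131440301-131440400 in D27aa (7.70%) and chr4:131439801-131439900 in WT (2.85%). The Tra2a leaders were chr6:49203001-49203100 in mutZn (4.06%) and chr6:49213901-49214000 in D27aa (11.4%). Several of these rest on few events, such as 5 for Srsf4 in D27aa.

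D27aa was compared with WT in the same fit. None of the 8 genes passed, against 3.14% of all regions tested (2.77% higher, 0.368% lower) and 33.1% of those with at least the events of the least covered member, and 4 of the 8 were below an unadjusted p of 0.05 in limma-voom (Srsf3, Srsf4, Tra2a and Tra2b), against 12.1% of all regions and 56.3% of those with at least the events of the least covered member. Srsf3 had 157 and 162 CPM in D27aa, against 194, 197 and 215 CPM in WT, below every WT library with a log2 difference of -0.28 ± 0.12 (SE, adjusted p = 0.33). Tra2b had 191 and 162 CPM in D27aa, also below all WT libraries (-0.29 ± 0.12, adjusted p = 0.30), and Srsf4 had 79.7 and 95.3 CPM in D27aa, likewise below WT (-0.36 ± 0.16, adjusted p = 0.35). Tra2a was the member with the largest positive difference, at 249.6 and 211 CPM in D27aa (0.30 ± 0.12, adjusted p = 0.28), inside the WT range. The levels of Srsf1 were 369 and 363 CPM in D27aa and those of Srsf2 377 and 319 CPM. Srsf5 had 127 and 147 CPM and Srsf6 had 228 and 203 CPM in D27aa. These 4 had log2 differences of -0.05 to 0.16 and adjusted p of at least 0.69. Both D27aa libraries shared a sequencing run with WT. D27aa 2 over the mean of WT 3 and WT 4 gave ratios of 0.717 for Tra2b, 0.757 for Srsf4 and 0.789 for Srsf3, and D27aa 1 over WT 2 gave 0.815, 0.802 and 0.807 for these genes. For Tra2a the ratios of D27aa to WT were 1.10 and 0.970, on either side of 1.

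By bins, 3 of the 146 differed between D27aa and WT, against 3.49% of all bins (2.59% higher, 0.899% lower). By usage 2 differed, against 0.811% of the bins with that test (0.591% higher, 0.22% lower). Each rests on few events and falls outside the naming rule. Tra2a chr6:49213001-49213100 had 5 and 5 events in D27aa (13.3 and 12.9 CPM), against 0, 2 and 3 in WT (0, 1.82 and 0.760 CPM), higher by 3.02 (adjusted p = 0.012, usage adjusted p = 0.011). The call was lost without WT 2 or WT 4. In Srsf2 chr11:116711601-116711700 and Srsf5 chr12:82047601-82047700, no event was counted in D27aa, which allows up to 7.97 and 7.72 CPM in its libraries, against 18.1, 5.46 and 7.34 CPM and 4.51, 7.28 and 13.9 CPM in WT. The adjusted p were 0.047 and 0.049, and no fold is given because the WT levels are close to that limit. These calls held in 2 of 9 alternative settings for the Srsf2 bin and in 2 of 7 for the Srsf5 bin, with adjusted p of up to 0.88 in the others.

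Set directly against D27aa, mutZn again differed in Srsf3 alone (1.27 ± 0.12 on the log2 scale, SE, adjusted p = 1.11e-08), at 423 and 414 CPM in mutZn and 157 and 162 CPM in D27aa. This was 1 of 8 members, against 3.67% of all regions tested (0.487% higher and 3.18% lower in mutZn) and 38.2% of those with at least the events of the least covered member. The comparison shares its mutZn libraries with the one against WT. Its call was lost when the libraries of both groups were fitted alone (1.38, adjusted p = 0.11) and when positions were counted once (0.42, adjusted p = 0.084). Tra2a, lower in mutZn by 0.36 ± 0.12 (adjusted p = 0.10), came next, and all others had adjusted p of at least 0.51.

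The libraries without UV gave the background. In mutZn no-UV, Srsf3 had 23 events or 345 CPM (95% exact Poisson interval 219 to 518), in D27aa no-UV 12 events or 344 CPM (178 to 600.3), and in WT no-UV 20 events or 225 CPM (137 to 347). Intervals of single libraries cover counting error only. Srsf1 had 525 CPM in mutZn no-UV, 516 CPM in D27aa no-UV and 573 CPM in WT no-UV. The other 6 genes ranged between 105 and 405 CPM in mutZn no-UV, between 115 and 430 CPM in D27aa no-UV, and between 101 and 292 CPM in WT no-UV. In CPM the genes were therefore at levels of the same order as with UV, while the number of events was far lower: 23 in mutZn no-UV, against 4984 and 2665 in the mutZn UV libraries for Srsf3. Inside the Srsf3 run, mutZn no-UV had 12 events (180.1 CPM, 93.0 to 315), D27aa no-UV 7 (200.5 CPM) and WT no-UV 8 (89.9 CPM, 38.8 to 177). The D27aa value comes from the library that shares positions with WT 4.

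With the anti-SRSF7 antibody, RRM_OE and endo_OE were set against GFP_OE. None of the 7 genes tested (all but Srsf4) passed in either comparison, as for all 443 regions tested (0.0%), and none of the 7 reached an unadjusted p of 0.05 in limma-voom, against 5.42% of all regions for RRM_OE and 10.2% for endo_OE. In RRM_OE 3, the shallowest of these libraries, 1 event was 56.4 CPM. Srsf3 had 0 events in RRM_OE 3, which allows up to 169 CPM, and 93.1 CPM in RRM_OE 4, against 158 and 204 CPM in GFP_OE (adjusted p = 0.96). In endo_OE it had 179 and 120 CPM, overlapping GFP_OE in CPM, with a log2 difference of -0.74 ± 0.42 (SE, adjusted p = 0.62). Tra2b had 0 events and 46.6 CPM in RRM_OE, 149.5 and 168 CPM in endo_OE, and 118 and 138 CPM in GFP_OE. Srsf2 was at 451 and 163 CPM in RRM_OE and at 448 and 455 CPM in endo_OE, against 229 and 286 CPM in GFP_OE. The endo_OE libraries of Srsf2 lay above both GFP_OE libraries without passing (log2 difference 0.45 ± 0.42, SE, adjusted p = 0.72). Srsf1 had 338 and 279 CPM in RRM_OE and 209 and 287 CPM in endo_OE, against 355 and 272 CPM in GFP_OE, with overlap throughout in CPM. The scaling factors of this fit were 1.25 and 1.14 for endo_OE and 0.89 and 0.91 for GFP_OE. Scaling by them lowers endo_OE against GFP_OE, so an overlap in CPM may not hold after it. Srsf4, Srsf5, Srsf6 and Tra2a ranged between 56.4 and 209.5 CPM in RRM_OE and between 11.97 and 329 CPM in endo_OE, against 55.3 to 255 CPM in GFP_OE. The single endo_WT library had 449.5 CPM in Srsf1, 549 in Srsf2, 161 in Srsf3, 85.2 in Srsf4, 175 in Srsf5, 237 in Srsf6, 251 in Tra2a and 185 in Tra2b.

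The 2 antibodies were compared on SRSF7-GFP OE cells, GFP_OE (anti-SRSF7) over WT (anti-EGFP). Tra2b had 118 and 138 CPM in GFP_OE, against 235, 214 and 238 CPM in WT, without overlap. It was lower in GFP_OE by 0.69 ± 0.15 on the log2 scale (SE, adjusted p = 0.0196), 1 of 8 genes, against 10.4% of the 9884 regions tested (2.39% lower in GFP_OE) and 27.8% of those with at least the events of the least covered member. The call was lost without WT 2, WT 4, GFP_OE 3 or GFP_OE 4 (adjusted p = 0.095 to 0.34), with the replicate number as a block over libraries 3 and 4 (adjusted p = 0.21) and when sparse windows were kept in (adjusted p = 0.097). The sequencing runs of the groups do not overlap, so run and antibody cannot be told apart. Srsf6 had 245 and 255 CPM in GFP_OE, above all 3 WT libraries at 181, 212 and 207 CPM, and did not pass (0.41 ± 0.13, adjusted p = 0.083). Srsf1, at 355 and 272 CPM in GFP_OE, lay below every WT library (-0.39 ± 0.17, adjusted p = 0.17). So did Srsf2 at 229 and 286 CPM, Srsf4 at 55.3 and 93.4 CPM and Srsf5 at 94.7 and 121 CPM in GFP_OE. Their log2 differences were -0.26, -0.38 and -0.22 (limma-voom, adjusted p = 0.34, 0.30 and 0.44). Tra2a, at 189 and 161 CPM in GFP_OE, overlapped WT. The 8 genes together had 1445 and 1530 CPM in GFP_OE, against 1864, 1839 and 1871 CPM in WT. How many of all regions lay below every WT library was not counted. The Srsf3 level, 158 and 204 CPM in GFP_OE, overlapped WT, and so did its run of bins at 94.7 and 80.6 CPM in GFP_OE.

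In piCLIP, none of the 8 genes had enough events for the test, and none of the 264 regions tested passed in limma-voom (0.0%, with 4.17% below an unadjusted p of 0.05). Per library, 0 to 12 events fell in a gene in poly_IP and 0 to 47 in mono_IP. Tra2a had 520 and 164 CPM in poly_IP, against 57.3 and 62.7 CPM in mono_IP (12 and 3 events against 3 and 2). Srsf4 had 173 and 218 CPM in poly_IP, against 115 CPM and 0 events in mono_IP, the latter allowing up to 94.0 CPM. Tra2b had 217 and 109 CPM in poly_IP, against 76.3 and 94.0 CPM in mono_IP. In CPM, these 3 genes were above mono_IP in both poly_IP libraries. How many of all regions separate in either direction was not counted. Srsf1, Srsf5 and Srsf6 were below mono_IP in both. Srsf1 had 173 CPM and 0 events in poly_IP, the latter allowing up to 164 CPM, against 477 and 188 CPM in mono_IP. For Srsf5 there were 43.3 and 54.6 CPM in poly_IP, against 172 and 282 CPM in mono_IP, and for Srsf6 86.6 and 164 CPM in poly_IP, against 248 and 251 CPM in mono_IP. The counts were too low for a test in either direction. These orders are in CPM of library totals. The scaling factors of the piCLIP fit were 1.23 and 1.39 for mono_IP and 0.71 and 0.83 for poly_IP. Scaling by them raises poly_IP against mono_IP, so an order below mono_IP may not hold after it. Srsf2 had 173 and 218 CPM in poly_IP, against 897 and 125 CPM in mono_IP, with the mono_IP libraries on either side of both poly_IP libraries. In Srsf3 there were 86.6 and 164 CPM in poly_IP, against 344 and 157 CPM in mono_IP, and the groups overlapped. The poly_IgG library had 10 events in Srsf6 (896 CPM, 430 to 1648), against 2 and 3 events in poly_IP (86.6 and 164 CPM), and at most 1 event in any other member. The mono_IgG library had 0 events in all 8, which allows up to 2602 CPM.

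The authors' deposited peak lists, which hold nucleotides whose score passed their permutation test on summed replicates, have no replicate check. They listed 5501 peak nucleotides in the 8 genes for mutZn (0.245% of that list), 163 for D27aa (0.469%) and 4261 for WT (0.208%). The whole lists held 2246120 peaks for mutZn, 34759 for D27aa and 2045481 for WT, so counts per gene are given with their share of the list. Srsf3 had the most in mutZn with 1275 (0.0568%), against 13 in D27aa (0.0374%) and 748 in WT (0.0366%). Srsf1 had 822 in mutZn (0.0366%), 37 in D27aa (0.106%) and 829 in WT (0.0405%). Shared positions of the mutZn and WT lists numbered 2419, which is 44.0% of the mutZn and 56.8% of the WT peaks in these genes. For Srsf3 they were 445, or 34.9% of the mutZn and 59.5% of the WT peaks, and for Srsf2 477, or 65.4% and 74.6%. The WT list names 4 inputs in its header, and the 3 WT libraries account for 28.7% of its scores in the 8 genes, so the rest of its scores comes from input not analysed here. The scores of the mutZn and D27aa lists equal the sums of their libraries at all peaks in these genes.

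Across the 14 UV iCLIP libraries, the members whose levels ran most alike were Srsf1 and Tra2b (Spearman's rho 0.79), Srsf3 and Tra2b (0.70), Srsf5 and Tra2a (0.66), and Srsf3 and Srsf4 (0.58). Srsf4 was next for Srsf1 and Tra2b next for Srsf4 (0.46 each), Srsf1 next for Tra2a (0.44) and Tra2b next for Srsf5 (0.42). Srsf2 was nearest to Srsf5 (0.24) and Srsf4 (0.14), and Srsf6 followed no other member, with 0.04 for Srsf3 and -0.12 for Srsf2. These are descriptions over libraries that differ in antibody and depth, and in the shallow ones a gene's level rests on few events.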

How the data were processed

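The members, intervals and comparisons were chosen with earlier results of these data known. Per the file headers, the deposited score of each crosslinked nucleotide is its number of cDNAs, on build mm9 with annotation Ensembl 59, and its sign gives the strand. CASAVA 1.4 is named per the submitters' processing notes, while the mapping tool and any step against PCR duplicates are not stated in what was used here. Peaks, per the file headers, were kept by the authors after 100 permutations within 15 nt at a false discovery rate of 0.05.

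Absolute scores were summed in the 8 intervals, in windows of 5000 nt elsewhere and in bins of 100 nt. Count-model tools were not used, because the unit is a signed score. Sums were tested with voom and eBayes of limma 3.58.1 (R 4.3.3), with library totals scaled by a trimmed mean of log ratios (30% of ratios and 5% of levels trimmed at each end) and Benjamini-Hochberg adjustment over all regions or bins. The 7 UV anti-GFP libraries were fitted together, as were the 7 UV anti-SRSF7 libraries, the 5 libraries of the antibody comparison and the 4 piCLIP immunoprecipitates. Regions needed the level of 10 events, and bins that of 5, at the median library total in at least 2 libraries, and 15 events in all; the minimum for bins was chosen after the number of passing bins had been seen. Fits were tested on simulated data. Limits of 0 are 3 events. Bins were named when they led a gene in a group, or were among the 3 largest changes in each direction past the threshold, averaging at least 20 events and with no overlap of the groups; members alike in level were the 2 with the highest Spearman's rho. Srsf7, Srsf9, Srsf10, Srsf11 and Srsf12 were not analysed here.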

Additional observations from a re-analysis of the deposited data

How the results depend on the processing

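The higher Srsf3 level in mutZn than in WT kept its direction and its call in all 11 alternatives, between 0.25 (each position counted once) and 1.15 (no filter) on the log2 scale. Other counts moved as follows, and the causes were not tested. The shares of all regions or bins that passed in each alternative are not given here.

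With each position counted once, 5 genes passed between mutZn and WT (1 higher, 4 lower) and 5 between mutZn and D27aa (all lower), Srsf2 turned to -0.56 against WT and to -0.89 against D27aa, and the 18 bins and 3 usage calls of mutZn against WT were both 0. Without the filter on low windows, 2 genes passed between mutZn and WT, 3 between mutZn and D27aa and 0 between GFP_OE and WT; the median log2 difference of all regions was then -1.38, -2.81 and 0.95, so these counts are not relative to a centre of 0. With the libraries of both groups alone, 0 passed between mutZn and D27aa. With library totals in place of the trimmed mean, usage calls were 7 (mutZn) and 5 (D27aa) and D27aa bins 11. With 2 times the event minimum, usage calls were 7 and 7, and D27aa bins 6. With the sequencing run as a block, an alternative chosen for bins after seeing the data, mutZn bins were 11 and D27aa bins 1, and usage calls 0 in both.

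Leaving out 1 library at a time, genes called were 1 to 5 (mutZn against WT, 5 without WT 2) and 0 to 1 (GFP_OE against WT). Bins called were 3 to 13 (mutZn) and 0 to 4 (D27aa), and usage calls 0 to 7 (mutZn) and 0 to 5 (D27aa). Genes called against WT in D27aa, against GFP_OE in RRM_OE and endo_OE, and in poly_IP against mono_IP stayed at 0 in every alternative run. Where a left-out library leaves a group with 1, that lone library is assumed to vary like the rest. Whether depth sets the low counts of calls in D27aa and the anti-SRSF7 groups was not tested.

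Same-numbered libraries had correlated deviations of 0.0024 (mutZn and WT), 0.23 (RRM_OE and GFP_OE), 0.010 (GFP_OE and WT) and 0.27 (poly_IP and mono_IP) over 2 pairs each. The main fits did not take the numbers to pair samples. Over 2 pairs, correlations of 0.23 and 0.27 cannot decide whether those libraries were paired. RRM_OE 3 and GFP_OE 3 did share a sequencing run, as did RRM_OE 4 and GFP_OE 4, and the main fit did not use this match. Both endo_OE libraries came from the run of GFP_OE 4. With the replicate block, libraries 3 and 4 of mutZn and WT gave 3 genes (Srsf1, Srsf2 and Srsf3), 21 bins and 5 usage calls, and 0 genes for RRM_OE, for poly_IP and, in a fit chosen after seeing the data, for GFP_OE against WT. No paired analysis was possible for D27aa and endo_OE because their groups share fewer than 2 numbers.

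At a peak score of at least 5, the lists held 1098 (mutZn), 5 (D27aa), 783 (WT) and 1 (piCLIP) peaks in the 8 genes. Allowing 15 nt, 4064 mutZn and 7 piCLIP peaks were shared with WT. Signs that changed where neither setting passed the threshold were not counted as turned.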
